A study of Mus musculus with 6 samples.

Results

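The acute-phase protein genes examined in fasted mouse liver were *Saa1*, *Saa2*, *Saa3*, *Hp*, *Orm1*, *Orm2*, *Lcn2*, *Hpx*, *Crp* and *Apcs*. They were taken by gene symbol, with no filter on their values but with earlier results of these data known. They are 10 of the 45777 genes in the deposited table. Whole livers were compared between 3 LKO mice (Alb-Cre; *Pak4* flox/flox) and 3 WT mice (*Pak4* flox/flox), with 1 library per mouse. All were C57BL/6 males 8 weeks old, and all were fasted for 24 h, so that there is no fed group and no inflamed group. Both genotypes carry the floxed *Pak4* alleles, and the WT mice, described as littermates, lack Cre, so that the effect of Cre itself and that of the loss of *Pak4* cannot be told apart. Alb-Cre is driven by the albumin promoter and acts in hepatocytes, whereas RNA came from whole liver.

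Acute-phase proteins are plasma proteins whose production by hepatocytes changes in infection, injury and inflammation. Interleukin 6 acts through its receptor, the kinases of the Janus family and the transcription factor STAT3, and interleukin 1 and tumor necrosis factor act through NF-κB. Factors of the C/EBP family bind many acute-phase promoters, and glucocorticoids enhance the response. In the mouse, serum amyloid A is the major acute-phase reactant and serum amyloid P, the product of *Apcs*, is induced strongly, whereas C-reactive protein, which dominates in humans, changes little.

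Read counts were scaled by TMM, which sets the libraries to a common level over most genes, and are given as CPM, the counts per 1e+06 scaled counts. Genotypes were compared with edgeR's quasi-likelihood test, and an adjusted p-value (Benjamini-Hochberg, over 18636 genes) under 0.05 was called. In LKO mice, *Apcs*, *Crp*, *Orm1*, *Orm2* and *Hpx* rose and *Saa3* fell. The other 4 members, *Saa1*, *Saa2*, *Hp* and *Lcn2*, did not pass the test. Thus 6 of 10 members were called, beside 40.1% of all genes tested, of which 5 were called higher, beside 19.6% of all genes tested, and 1 was called lower, beside 20.5% of all genes tested. The median log2 fold change (LKO over WT) was 1.36 over the members and -0.04 over all genes tested. The values of the genotypes did not overlap for 6 of 10 members, the same 6 that were called, beside 54.0% of all genes tested.

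**Figure D1:**
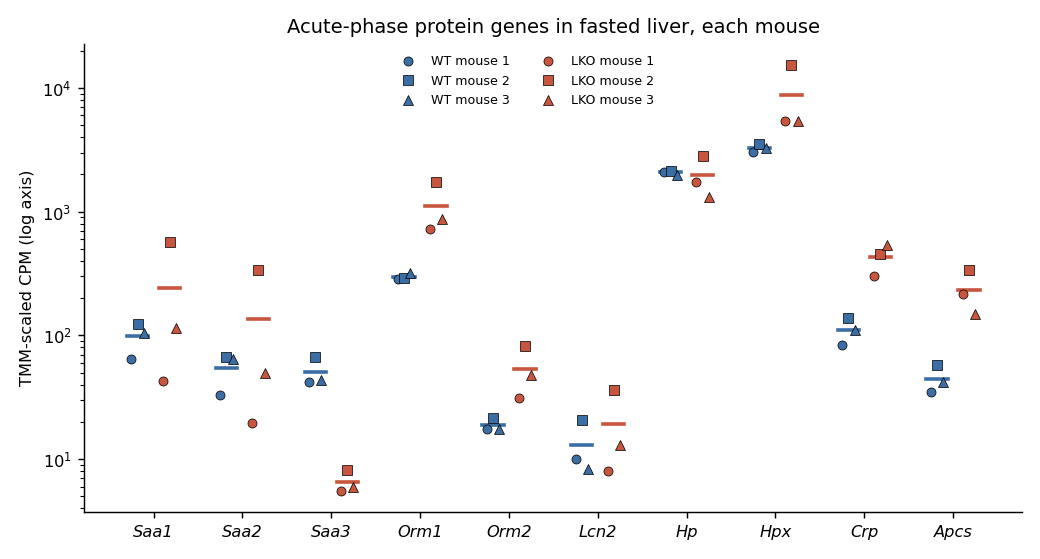
TMM-scaled CPM (log axis) of the 10 members in each of the 3 WT mice (blue) and 3 LKO mice (red), with 1 symbol per mouse and a bar at the mean of each genotype. *Saa3* is lower in every LKO mouse, *Apcs*, *Crp*, *Orm1*, *Orm2* and *Hpx* are higher in every LKO mouse, and LKO mouse 2 stands highest among LKO mice for 9 members.

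The size of these changes depended on how libraries were scaled. The scaling factors of TMM lay between 1.28 and 1.43 for the WT libraries and between 0.639 and 0.816 for the LKO libraries. When total counts replaced TMM, the median log2 fold change of all genes moved from -0.04 to -0.90 and the calls moved from 19.6% higher and 20.5% lower to 6.27% higher and 51.4% lower. On that scale, 3 members were called higher (*Apcs*, *Crp* and *Orm1*) and 2 lower (*Saa3* and *Hp*). With limma on log2(TPM + 1), 1 member was called higher (*Apcs*) and 2 lower (*Saa3* and *Hp*), beside 2.14% of all genes higher and 67.2% lower. *Saa3* was called lower and *Apcs* higher under all the alternatives run.

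**Figure D2:**
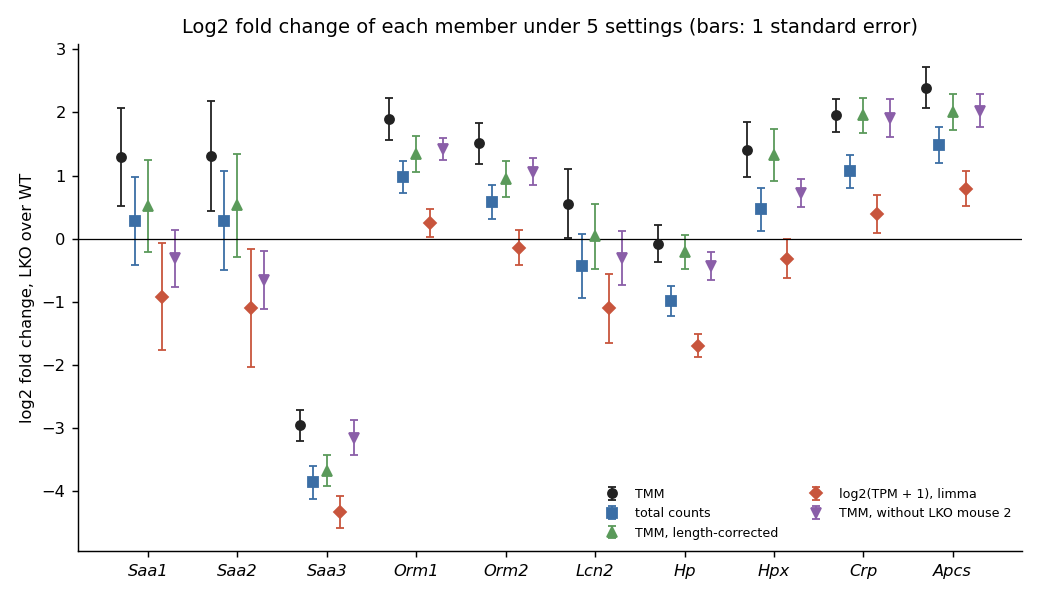
Log2 fold change (LKO over WT, bars of 1 standard error) of each member under TMM, total counts, TMM with a correction for gene length, limma on log2(TPM + 1), and TMM without LKO mouse 2. *Saa3* stays below 0 and *Orm1*, *Crp* and *Apcs* stay above 0 in all 5, whereas *Saa1* and *Saa2* lie above 0 with TMM and below 0 without LKO mouse 2.

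Total counts were 45934632 to 59576437 per mouse, and the members took 245 to 532722 counts each. Pearson's r of log2 CPM across genes (genes are no replicates) was 0.981 to 0.991 within a genotype. *Pak4*, the targeted gene, had 268, 210 and 271 counts in the WT mice and 85, 52 and 149 in the LKO mice. Its TMM-scaled CPM overlapped between genotypes (log2 fold change -0.71, SE 0.31, adjusted p = 0.10, edgeR; two-sided exact permutation test of CPM, p = 0.20, smallest possible 0.10). With total counts it was lower in every LKO mouse (log2 fold change -1.54, adjusted p = 0.0056, edgeR). The counts cover the whole gene and not the deleted part alone.

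Sequences of promoters are shown for 4 members that moved differently: *Saa2*, which was not called, *Saa3*, which fell, and *Orm2* and *Apcs*, which rose. Each window is the 250 bases before the 1 start per gene of a RefSeq promoter table (GRCm38.p6), read 5′ to 3′ on the strand of the gene, and bases in an exon of GENCODE were left out, 43 for *Saa2*, 24 for *Saa3* and 0 for *Orm2* and *Apcs*. For *Saa3* that start is 46715676 and for *Saa1* it is 46742980, whereas the RefSeq spans of these genes reach upstream to 46719615 and 46743181. The window of *Saa3* thus lies inside its span. That of *Saa1* (46742981 to 46743230) lies inside its span in part only. The *Saa2* sequence is chr7:46751583-46751789 (plus strand), that of *Saa3* is chr7:46715701-46715926 (minus strand), that of *Orm2* is chr4:63362199-63362448 (plus strand) and that of *Apcs* is chr1:172895055-172895304 (minus strand). Capitals mark a match to a C/EBP motif (TTGCNNAA) in *Saa2*, *Saa3* and *Orm2* and to a STAT motif (TTCNNNGAA) in *Apcs*.
Saa2: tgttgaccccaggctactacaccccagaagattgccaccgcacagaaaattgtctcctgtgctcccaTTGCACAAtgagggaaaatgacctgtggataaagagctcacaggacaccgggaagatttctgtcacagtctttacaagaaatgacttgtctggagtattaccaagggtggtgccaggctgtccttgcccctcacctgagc
Saa3: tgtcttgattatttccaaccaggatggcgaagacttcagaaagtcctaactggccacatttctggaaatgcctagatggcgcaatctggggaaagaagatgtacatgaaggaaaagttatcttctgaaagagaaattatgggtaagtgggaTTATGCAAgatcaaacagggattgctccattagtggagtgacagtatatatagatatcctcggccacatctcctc
Orm2: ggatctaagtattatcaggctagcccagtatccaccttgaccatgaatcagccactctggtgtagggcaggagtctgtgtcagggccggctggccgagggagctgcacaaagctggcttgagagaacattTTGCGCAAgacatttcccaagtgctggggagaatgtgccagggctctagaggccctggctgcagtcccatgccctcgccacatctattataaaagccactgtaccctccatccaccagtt
Apcs: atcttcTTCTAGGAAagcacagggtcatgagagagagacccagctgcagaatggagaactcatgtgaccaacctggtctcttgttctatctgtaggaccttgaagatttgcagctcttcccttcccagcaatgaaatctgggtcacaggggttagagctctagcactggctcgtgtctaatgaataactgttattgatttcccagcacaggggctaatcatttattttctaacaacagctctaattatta

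The RefSeq promoter table held 8 of the 10 members, all but *Hp* and *Orm1*. On both strands, a match to TTGCNNAA was found in 6 of these 8 (*Saa1*, *Saa2*, *Saa3*, *Orm2*, *Lcn2* and *Hpx*), whereas 9.56% of 32851 promoter windows of the same length hold one. Counted from the start in that table, the match TTGCACAA lay 182 to 175 bases upstream in *Saa1* and 183 to 176 bases upstream in *Saa2*, and in *Saa3* a match on the other strand (TTATGCAA) lay 99 to 92 bases upstream. The search used the whole 250 bases, which overlap GENCODE exons in *Saa2*, *Saa3*, *Lcn2*, *Hpx* and *Crp*. *Apcs* alone among the 8 held TTCNNNGAA, which 7.02% of all windows hold. A match to the NF-κB motif (GGGA, any 4 bases, CC) was found in none of the 8 (17.6% of all windows), nor was one to the HNF1 motif (GTTAAT, any 2 bases, TT; 0.938%). The glucocorticoid receptor motif ACANNNTGT was matched in *Lcn2* alone (5.84% of all windows). *Crp* held none of the 5 motifs. The windows of *Saa1* and *Saa2* were 95.6% identical over 249 aligned bases, and those of *Saa1* and *Saa3* 64.4% over 216. These are matches of letters in a short window and say nothing of binding.

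The serum amyloid A genes lie together on chromosome 7 (GRCm38.p6). *Saa3* (Entrez gene 20210) spans 46711998 to 46719615, *Saa1* (20208) spans 46740497 to 46743181 and *Saa2* (20209) spans 46751833 to 46754313. *Saa1* and *Saa2* encode the circulating apolipoproteins of high-density lipoprotein made by hepatocytes, and *Saa3* encodes a form that macrophages and adipocytes also make.

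*Saa1* was at 65.0, 124.8 and 104.5 CPM in the WT mice 1, 2 and 3 and at 42.4, 564.3 and 115.5 CPM in the LKO mice 1, 2 and 3. *Saa2* was at 33.0, 66.9 and 63.9 CPM in the WT mice and at 19.4, 338.5 and 49.8 CPM in the LKO mice. For both genes LKO mouse 1 was the lowest and LKO mouse 2 the highest of the 6 animals, so that the genotypes overlapped. The LKO spread was 13.3-fold for *Saa1* and 17.4-fold for *Saa2*, against 1.92-fold and 2.03-fold among WT mice. The log2 fold change was 1.29 for *Saa1* (SE 0.78, adjusted p = 0.22, edgeR) and 1.31 for *Saa2* (SE 0.87, adjusted p = 0.26, edgeR), and neither was called. Without LKO mouse 2 the log2 fold changes were -0.31 (adjusted p = 0.63, edgeR) and -0.66 (adjusted p = 0.31, edgeR), and without LKO mouse 1 that of *Saa1* was 1.79 (adjusted p = 0.043, edgeR). The longest transcripts of *Saa1* and *Saa2* are 94.4% identical over 606 aligned bases, so reads may be split uncertainly between them, although no stretch of 100 bases is the same in both. Their summed counts gave a log2 fold change of 1.30 (adjusted p = 0.24, edgeR).

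*Saa3* was at 41.7, 67.3 and 43.9 CPM in the WT mice and at 5.57, 8.23 and 5.93 CPM in the LKO mice. Each LKO mouse lay below every WT mouse, and the 3 LKO mice lay close together. It was 7.77-fold lower in the LKO mice (log2 fold change -2.96, SE 0.25, adjusted p = 0.000243, edgeR). With total counts the log2 fold change was -3.85 (adjusted p = 0.000078, edgeR). In LKO mouse 2, where *Saa1* and *Saa2* were highest, *Saa3* was at 8.23 CPM, which is 0.122 times the highest WT value. The ratio of *Saa1* to *Saa3* counts within a mouse, which no library scaling can alter, was 1.56, 1.85 and 2.38 in the WT mice and 7.62, 68.6 and 19.5 in the LKO mice. The ratio of *Saa1* to *Saa2* was 1.97, 1.87 and 1.64 in the WT mice and 2.19, 1.67 and 2.32 in the LKO mice, and its genotypes overlapped. *Saa4*, the constitutive member of the family, chosen after its values were seen, was at 110.0, 183.4 and 183.4 CPM in the WT mice and at 54.3, 168.1 and 38.0 CPM in the LKO mice, and was not called (log2 fold change -0.87, adjusted p = 0.21, edgeR); with total counts it was called lower (-1.83, adjusted p = 0.0075, edgeR).

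As macrophages are a source of *Saa3*, markers of Kupffer cells and macrophages are given beside it. Of 8 such markers, 4 were called higher and 1 lower in the LKO mice, and their summed CPM was 274.3 to 413.6 in the WT mice and 444.6 to 865.1 in the LKO mice. With total counts, 2 of the 8 were called higher and 3 lower. Shares over all genes tested were 19.6% and 20.5% with TMM, and 6.27% and 51.4% with total counts. With TMM, *Clec4f*, *Vsig4*, *Timd4* and *Marco* were called higher (log2 fold changes 1.19, 1.92, 3.27 and 2.00, edgeR) and *Cd68* lower (-1.29, edgeR). *Cd5l*, *Adgre1* and *Csf1r* were not called (0.86, -0.12 and -0.18, adjusted p = 0.063, 0.74 and 0.52, edgeR). On total counts *Vsig4* and *Marco* were still called higher, and *Cd68*, *Adgre1* and *Csf1r* were called lower. In bulk liver, fewer cells of a type and less RNA per cell cannot be told apart, and the part of macrophages in the values of *Saa3* was not tested.

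The pentraxins form ring-shaped pentamers that bind microbial surfaces and damaged cells. *Apcs* (20219; chromosome 1, 172893961 to 172895054), which encodes serum amyloid P, was at 34.7, 57.2 and 42.0 CPM in the WT mice and at 215.7, 339.6 and 148.3 CPM in the LKO mice. Every LKO mouse lay above every WT mouse. The rise was 5.26-fold (log2 fold change 2.39, SE 0.32, adjusted p = 0.000932, edgeR), the largest among the members. *Crp* (12944; chromosome 1, 172698056 to 172699966), which encodes C-reactive protein, was at 84.1, 138.2 and 111.4 CPM in the WT mice and at 304.2, 453.1 and 533.4 CPM in the LKO mice. It rose 3.87-fold (log2 fold change 1.95, SE 0.27, adjusted p = 0.000959, edgeR), again with no overlap. *Crp* was the only member whose highest LKO value was in mouse 3. With limma on log2(TPM + 1), *Apcs* was still called (log2 fold change 0.79, adjusted p = 0.047), whereas *Crp* was not (0.39, adjusted p = 0.29).

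The orosomucoids are lipocalin-fold glycoproteins that carry small molecules in plasma. *Orm1* (18405; chromosome 4, 63344556 to 63348163) was at 285.2, 293.2 and 319.2 CPM in the WT mice and at 722.7, 1750.5 and 873.9 CPM in the LKO mice. It rose 3.73-fold with no overlap (log2 fold change 1.90, SE 0.33, adjusted p = 0.00275, edgeR). *Orm2* (18406; chromosome 4, 63362449 to 63365877) was at 17.7, 21.5 and 17.6 CPM in the WT mice and at 30.9, 82.8 and 47.9 CPM in the LKO mice. It rose 2.85-fold with no overlap (log2 fold change 1.51, SE 0.32, adjusted p = 0.00679, edgeR). With total counts the value of *Orm2* was 0.58 (adjusted p = 0.091, edgeR), and with log2(TPM + 1) it was -0.14 (adjusted p = 0.67, limma), so its call depended on the scaling. The same step took *Orm1* to 0.98 (adjusted p = 0.0091, edgeR) and 0.24 (adjusted p = 0.36, limma). Without LKO mouse 2 both were still called (leaving out each mouse in turn gave log2 fold changes of 1.42 to 2.13 for *Orm1* and 1.06 to 1.79 for *Orm2*). The transcripts of *Orm1* and *Orm2* are 91.0% identical over 775 aligned bases and share 47 of 676 windows of 100 bases, so their separate values are uncertain. The summed counts of *Orm1*, *Orm2* and *Orm3* gave a log2 fold change of 1.89 (adjusted p = 0.0028, edgeR).

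*Lcn2* (16819; chromosome 2, 32384637 to 32387739) encodes lipocalin 2, which withholds iron from bacteria by binding their siderophores and is made by hepatocytes and neutrophils. It was at 10.1, 20.6 and 8.32 CPM in the WT mice and at 7.95, 36.2 and 13.1 CPM in the LKO mice. The genotypes overlapped and the difference did not pass the test (log2 fold change 0.55, SE 0.55, adjusted p = 0.45, edgeR). Without LKO mouse 2 the log2 fold change was -0.30 (adjusted p = 0.62, edgeR), and with total counts it was -0.43 (adjusted p = 0.49, edgeR). Of 10 neutrophil markers, 5 passed the filter on low counts, 3 of them were called higher (*S100a8*, *S100a9* and *Retnlg*) and 1 lower (*Csf3r*). This stands beside 19.6% higher and 20.5% lower of all genes tested. With total counts 1 was called higher and 1 lower, beside 6.27% and 51.4% of all genes tested. With the correction for gene length *S100a8*, *S100a9*, *Retnlg* and *Csf3r* were not called (adjusted p = 0.053 to 0.086, edgeR). The summed CPM of those 5 was 3.45 to 11.1 in the WT mice and 14.8 to 29.3 in the LKO mice, and *Ly6g*, *Mpo*, *Elane*, *Ngp* and *Camp* had at most 10 counts in any mouse. Their part in the values of *Lcn2* was not tested.

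Haptoglobin and hemopexin are the plasma scavengers of free hemoglobin and free heme. *Hp* (15439; chromosome 8, 109575128 to 109579172) was at 2111.8, 2145.6 and 1988.1 CPM in the WT mice and at 1754.1, 2842.0 and 1325.8 CPM in the LKO mice. LKO mice 1 and 3 lay below the WT mice and LKO mouse 2 above them, and the difference did not pass the test (log2 fold change -0.08, SE 0.30, adjusted p = 0.86, edgeR). With total counts every LKO mouse lay below every WT mouse and *Hp* was called lower (log2 fold change -0.98, adjusted p = 0.0073, edgeR), as it was with log2(TPM + 1) (-1.69, adjusted p = 0.000514, limma).

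*Hpx* (15458; chromosome 7, 105591611 to 105600116) was at 3060.8, 3518.2 and 3272.9 CPM in the WT mice and at 5420.8, 15275.0 and 5448.6 CPM in the LKO mice. Every LKO mouse lay above every WT mouse, and LKO mouse 2 was 2.81 times the mean of LKO mice 1 and 3. The rise was 2.65-fold (log2 fold change 1.41, SE 0.44, adjusted p = 0.032, edgeR). The call was lost when any 1 WT mouse was left out (adjusted p = 0.078 to 0.089, edgeR), whereas without LKO mouse 2 it was kept at a log2 fold change of 0.73. With total counts the log2 fold change was 0.46 (adjusted p = 0.27, edgeR), and with log2(TPM + 1) it was -0.32 (adjusted p = 0.40, limma). The ratio of *Hpx* to *Hp* counts within a mouse was 1.45, 1.64 and 1.65 in the WT mice and 3.09, 5.37 and 4.11 in the LKO mice. The 2 scavengers thus shifted against each other in every LKO mouse, whatever the scaling of libraries. Of 5 erythroid genes, 2 were called higher (*Hbb-bs* and *Hbb-bt*, log2 fold changes 2.90 and 2.71, edgeR) and 1 lower (*Alas2*, -1.37, edgeR). Among all genes tested, 19.6% were called higher and 20.5% lower. *Hba-a1* and *Hba-a2* were not called (1.08 and 1.15, both adjusted p = 0.095, edgeR). The summed CPM of the 5 was 191.7 to 323.9 in the WT mice and 879.1 to 1633.9 in the LKO mice. *Hbb-bs* alone had means of 120.3 and 897.4 CPM. The part of erythroid cells in the values of *Hp* and *Hpx* was not tested.

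The ratios of all pairs of members were read in the same way. Of 45 pairs, 23 had genotypes that did not overlap, beside 52.3% over all ratios of another gene tested to a member. *Saa3* was apart from all 9 other members (90.5% of all other genes tested). *Apcs* was apart from 6 (84.9%) and *Hp* from 6 (37.9%). *Orm1* (78.2%), *Orm2* (65.0%), *Hpx* (61.2%) and *Lcn2* (12.4%) were apart from 5 each. *Crp* (81.2%) and *Saa1* (6.97%) were apart from 2 each, and *Saa2* from 1 (4.77%). Each share is that of all other genes tested against the same member, read beside 9 pairs per member. The ratio of *Hp* to *Apcs* was 60.9, 37.5 and 47.3 in the WT mice and 8.13, 8.37 and 8.94 in the LKO mice. The ratio of *Orm1* to *Orm2* was 16.1, 13.7 and 18.1 in the WT mice and 23.4, 21.2 and 18.2 in the LKO mice, so that their genotypes met closely but did not overlap. The pairs share members and are not independent.

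Levels of different genes were compared per length, as deposited TPM. *Hpx* was the highest of the 10 members in every mouse, at 4045.9, 4993.1 and 4087.1 TPM in the WT mice and at 2680.1, 5647.6 and 2803.6 TPM in the LKO mice. *Hp* came next in the WT mice (3081.1, 3361.1 and 2740.7 TPM), followed by *Orm1* (716.3, 790.6 and 757.2 TPM). In LKO mice, *Orm1* (678.8, 1229.7 and 854.3 TPM) exceeded *Hp* (957.6, 1160.0 and 753.6 TPM) in mice 2 and 3 but not in mouse 1, and their ranges overlapped. *Saa1* followed in the WT mice at 198.6 to 405.4 TPM, and its range overlapped that of *Saa2* (101.6 to 220.3 TPM). *Saa3* stood at 121.4 to 237.6 TPM in the WT mice, at rank 5 or 6, and at 6.66 to 7.47 TPM in the LKO mice, the lowest of the 10 in each. The ranges of *Saa2*, *Saa3*, *Crp* and *Apcs* overlapped between neighbours in the WT mice, as did those of *Orm2* and *Lcn2*. In LKO mice the ranges of *Saa1*, *Crp*, *Apcs*, *Saa2* and *Orm2* overlapped between neighbours.

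**Figure D3:**
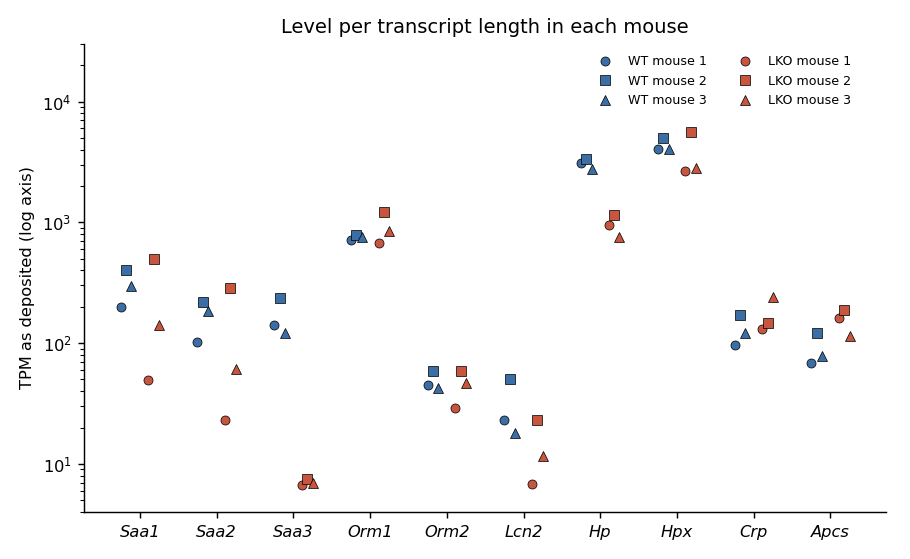
TPM as deposited (log axis) of each member in each mouse, WT in blue and LKO in red. *Hpx* is the highest member in all 6 mice, *Saa3* is at 6.66 to 7.47 TPM in the LKO mice, and most members overlap between genotypes on this scale.

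The members took 0.776%, 0.919% and 0.766% of all counts in the WT mice 1, 2 and 3 and 0.696%, 1.39% and 0.665% in the LKO mice 1, 2 and 3. The genotypes overlapped, and LKO mouse 2 stood highest. *Hpx* made 53.3% to 54.8% of the members' counts in the WT mice and 63.6% to 70.4% in the LKO mice. *Hp* made 33.2% to 36.8% in the WT mice and 13.1% to 20.6% in the LKO mice. WT mouse 2 was the highest WT mouse for 9 members, all but *Orm1*, and LKO mouse 2 was the highest LKO mouse for 9, all but *Crp*. LKO mouse 1 was the lowest LKO mouse for 8, all but *Hp* and *Apcs*. The members share each library and its scaling, so this is a description of 6 animals.

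Other acute-phase genes moved in both directions as well. Of 24 further genes listed as rising in the acute phase, which include the constitutive *Saa4*, 23 were tested. Of these, 12 were called higher and 4 lower, beside 19.6% and 20.5% of all genes tested. The median log2 fold change was 0.77. With total counts 8 were called higher and 10 lower (median -0.13), beside 6.27% and 51.4% of all genes tested. The largest rises were those of the metallothioneins *Mt1* (log2 fold change 3.84, SE 0.63, adjusted p = 0.0021) and *Mt2* (3.60, SE 0.66, adjusted p = 0.0034), which bind zinc, of the fibrinogen-like hepatokine *Fgl1* (3.08, SE 0.32, adjusted p = 0.00037) and of the serine protease inhibitor *Serpina3m* (3.05, SE 0.28, adjusted p = 0.0003; all edgeR). *Serpina3m* was at 317.2, 310.4 and 297.5 CPM in the WT mice and at 1924.0, 3553.8 and 2196.9 CPM in the LKO mice. All 4 rose with total counts too.

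The chains of fibrinogen, the clotting protein, are induced by interleukin 6. *Fgb* was at 2240.2, 2911.7 and 2585.4 CPM in the WT mice and at 7488.7, 17457.0 and 9098.8 CPM in the LKO mice (log2 fold change 2.14, SE 0.38, adjusted p = 0.0029, edgeR). *Fgg* rose alongside (2.03, SE 0.37, adjusted p = 0.0032, edgeR). *Fga*, the remaining chain, named after its values were seen, was at 2452 to 2848 CPM in the WT mice and at 1907 to 3783 CPM in the LKO mice and was not called (0.17, adjusted p = 0.67, edgeR). For *Fgb* and *Fgg*, as for *Hpx*, LKO mouse 2 was the highest animal.

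The genes called lower were *Steap4*, a metalloreductase (log2 fold change -2.31, SE 0.32, adjusted p = 0.0011), *Itih4*, an inter-alpha-trypsin inhibitor heavy chain (-1.03, SE 0.22, adjusted p = 0.0062), and the complement genes *Cfb* (-0.83, SE 0.20, adjusted p = 0.011) and *C3* (-0.59, SE 0.20, adjusted p = 0.044; all edgeR). With the correction for gene length *C3* was not called (-0.41, adjusted p = 0.13, edgeR). *Steap4* was at 293.1, 379.6 and 298.9 CPM in the WT mice and at 45.6, 102.0 and 48.8 CPM in the LKO mice. Like *Saa3*, these 4 were lower in every LKO mouse than in any WT mouse. The genotypes did not overlap, in either direction, for 54.0% of all genes tested.

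Of 8 genes that fall in the acute phase, 4 were called higher and 3 lower (median log2 fold change 0.13). With total counts 2 were called higher and 4 lower (median -0.73). Shares over all genes tested were 19.6% and 20.5% with TMM, and 6.27% and 51.4% with total counts. *Alb*, encoding albumin, was at 23812, 19641 and 19783 CPM in the WT mice and at 83840, 60635 and 63690 CPM in the LKO mice (log2 fold change 1.72, SE 0.38, adjusted p = 0.0079, edgeR, and 0.87 with total counts). *Apoa1*, the main apolipoprotein of high-density lipoprotein, rose by 1.81 (SE 0.26, adjusted p = 0.0012, edgeR, and 0.92 with total counts). *Ahsg* (0.85, adjusted p = 0.019, edgeR) and *Rbp4* (0.67, adjusted p = 0.016, edgeR), which encode fetuin-A and the plasma retinol carrier, had values of -0.01 and -0.18 with total counts, and *Rbp4* was not called with the correction for gene length (0.35, adjusted p = 0.16, edgeR). *Serpina6*, which encodes the glucocorticoid carrier of plasma, was at 44.8, 29.1 and 47.8 CPM in the WT mice and at 3.82, 2.58 and 1.95 CPM in the LKO mice (log2 fold change -3.87, SE 0.30, adjusted p = 0.000215, edgeR). *Ttr*, encoding transthyretin (-1.35, adjusted p = 0.0050, edgeR), and *Trf*, encoding transferrin (-1.12, adjusted p = 0.010, edgeR), were lower as well. The list thus held no common direction.

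**Figure D4:**
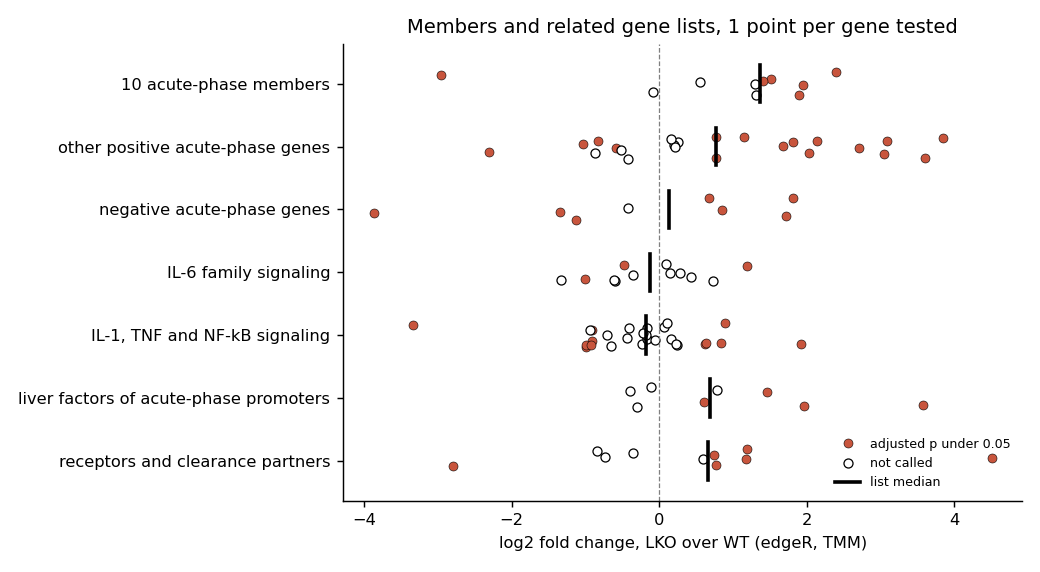
Log2 fold change (LKO over WT; edgeR with TMM) of the 10 members and of the tested genes of 6 related lists, 1 point per gene, filled where the adjusted p-value is under 0.05, with a bar at the median of each list. Both groups of acute-phase genes spread to both sides of 0, with medians of 1.36 for the members, 0.77 for the list of other rising acute-phase genes and 0.13 for falling ones. The list of rising genes includes the constitutive *Saa4*.

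Signaling genes were examined next. Of 16 genes of the interleukin 6 family, 12 were tested, 1 was called higher and 2 lower (median log2 fold change -0.13). With total counts 0 were called higher and 8 lower (median -1.01). Shares over all genes tested were 19.6% and 20.5% with TMM, and 6.27% and 51.4% with total counts. *Osmr*, a receptor chain for oncostatin M, rose by 1.19 (SE 0.25, adjusted p = 0.0060, edgeR, and 0.32 with total counts), and *Tyk2*, a Janus kinase (-1.01, adjusted p = 0.0016, edgeR), and *Ptpn11*, a phosphatase (-0.47, adjusted p = 0.034, edgeR), were lower. With the correction for gene length *Ptpn11* was not called (-0.30, adjusted p = 0.15, edgeR). *Stat3*, which is also a target of its own pathway, was at 49.6, 71.7 and 76.6 CPM in the WT mice and at 52.8, 87.4 and 70.9 CPM in the LKO mice (log2 fold change 0.09, SE 0.23, adjusted p = 0.77, edgeR). *Socs3*, a feedback inhibitor that STAT3 induces, was at 2.27, 8.19 and 4.67 CPM in the WT mice and at 4.77, 8.95 and 6.64 CPM in the LKO mice (0.43, SE 0.43, adjusted p = 0.46, edgeR). *Il6ra*, the ligand-binding receptor chain, had a log2 fold change of 0.73 (SE 0.31, adjusted p = 0.098, edgeR, and -0.13 with total counts). *Stat3*, *Socs3* and *Il6ra* overlapped between genotypes and were not called. The filter on low counts removed the ligand *Il6*, which had 0, 0 and 0 counts in the WT mice and 11, 6 and 0 in the LKO mice, and also *Lif*, *Osm* and *Il11*; these 4 are named for their filtering.

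Of 27 genes of interleukin 1, TNF and NF-κB signaling, all were tested, 5 were called higher and 6 lower (median log2 fold change -0.17). These counts stand beside 19.6% higher and 20.5% lower of all genes tested. With total counts 0 were called higher and 19 lower (median -1.03), beside 6.27% and 51.4% of all genes tested. *Il1r1*, the receptor of interleukin 1, was at 50.7, 73.6 and 36.6 CPM in the WT mice and at 67.8, 270.1 and 269.7 CPM in the LKO mice (1.92, SE 0.50, adjusted p = 0.016, edgeR, and 0.99, adjusted p = 0.095 with total counts), and LKO mouse 1 lay within the WT range. *Tlr4*, the receptor of endotoxin (0.89), *Il1a* (0.83) and the kinase *Chuk* (0.64) were called higher with TMM (adjusted p = 0.0082, 0.0097 and 0.028, edgeR) and had values of -0.003, -0.05 and -0.23 with total counts. The kinase *Ikbkb* (-0.997), the NF-κB subunit *Nfkb2* (-0.99), the inhibitor *Tnfaip3* (-0.92) and the adaptor *Traf2* (-0.91) were called lower (adjusted p = 0.0021, 0.0082, 0.011 and 0.0045, edgeR), and lower also with total counts. The ligand *Tnf* had few counts, 23, 82 and 26 in the WT mice and 4, 0 and 4 in the LKO mice. It was called lower (-3.33, SE 0.85, adjusted p = 0.015, edgeR), and the ligand *Il1b* was not called (-0.17, adjusted p = 0.80, edgeR).

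Among 8 liver factors that act on acute-phase promoters, 4 were called higher and 0 lower (median log2 fold change 0.69). This stands beside 19.6% higher and 20.5% lower of all genes tested. With total counts 2 were called higher and 3 lower (median -0.14), beside 6.27% and 51.4% of all genes tested. *Cebpd*, a C/EBP factor induced in the acute phase, was at 3.22, 3.09 and 2.80 CPM in the WT mice and at 21.8, 47.4 and 39.4 CPM in the LKO mice (log2 fold change 3.58, SE 0.29, adjusted p = 0.000218, edgeR, and 2.67 with total counts). *Cebpb* was at 9.12, 4.58 and 16.6 CPM in the WT mice and at 21.1, 28.7 and 33.7 CPM in the LKO mice (1.46, SE 0.41, adjusted p = 0.022, edgeR), and with total counts it was not called (0.62, adjusted p = 0.19, edgeR). *Fkbp5*, a glucocorticoid-induced chaperone, rose by 1.96 (SE 0.34, adjusted p = 0.0025, edgeR, and 1.10 with total counts). *Tsc22d3*, of the same list, overlapped between genotypes and was not called (0.78, SE 0.37, adjusted p = 0.13, edgeR, and -0.056 with total counts). *Cebpa* was called higher with TMM (0.60, adjusted p = 0.045, edgeR) and had a value of -0.23 with total counts. *Nr3c1*, the glucocorticoid receptor, was at 138.7, 140.4 and 146.1 CPM in the WT mice and at 135.8, 149.7 and 108.8 CPM in the LKO mice and was not called (-0.11, SE 0.16, adjusted p = 0.62, edgeR). Of the members whose windows hold TTGCNNAA, *Orm2* and *Hpx* rose, *Saa3* fell, and *Saa1*, *Saa2* and *Lcn2* were not called.

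Of 10 receptors and clearance partners of the members' proteins, 5 were called higher and 1 lower (median log2 fold change 0.67). With total counts 1 was called higher and 4 lower (median -0.18). Shares over all genes tested were 19.6% and 20.5% with TMM, and 6.27% and 51.4% with total counts. *Cd163*, the macrophage receptor that takes up haptoglobin bound to hemoglobin, was at 1.09, 2.02 and 0.83 CPM in the WT mice and at 24.3, 30.1 and 34.8 CPM in the LKO mice (log2 fold change 4.50, SE 0.34, adjusted p = 0.000212, edgeR, and 3.62 with total counts). *Fpr2*, a formyl peptide receptor that also binds serum amyloid A (1.19, adjusted p = 0.042), the scavenger receptor *Cd36* (1.17, adjusted p = 0.026) and the Fc receptor *Fcgr2b* (0.77, adjusted p = 0.0038; all edgeR) were called higher with TMM and had values of 0.29, 0.26 and -0.09 with total counts. *Fpr2* was not called with the correction for gene length either (1.06, adjusted p = 0.073, edgeR). *Lrp2*, an endocytic receptor of lipocalin 2, was at 3.66, 4.83 and 7.03 CPM in the WT mice and at 0.70, 0.29 and 1.21 CPM in the LKO mice (-2.79, SE 0.47, adjusted p = 0.0024, edgeR).

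The tissue carried its defining markers in every library. Of 6 hepatocyte markers, 2 were called higher and 1 lower, and with total counts 2 higher and 3 lower. Their summed CPM was 38670.3 to 42216.5 in the WT mice and 95678.3 to 122022.4 in the LKO mice. *Alb* carried much of that sum, at a mean of 21078.7 ± 2368.2 CPM in the WT mice and 69388.3 ± 12608.4 CPM in the LKO mice (SD, n = 3). *Cps1* was called higher too (log2 fold change 1.71, adjusted p = 0.0021, edgeR, and 0.855 with total counts), whereas *Ttr* was called lower. *Apob*, *Asgr1* and *Hnf4a* were not called (adjusted p = 0.058, 0.79 and 0.42, edgeR). *Apob* was higher in every LKO mouse with TMM (0.83) and had a value of -0.027 with total counts. Of 6 stellate cell markers 3 were called higher and 0 lower, and of 6 sinusoidal endothelial markers 4 and 0, but with total counts each of these lists had 2 called higher and 2 lower (medians -0.02 and -0.18). Of 5 cholangiocyte markers 4 were tested, with 0 called higher and 1 lower, and with total counts likewise. Of 6 lymphocyte markers 0 were called higher and 1 lower, and with total counts 0 and 2. Beside all these marker lists, 19.6% of all genes tested were called higher and 20.5% lower. The shares with total counts were 6.27% and 51.4%. The part of these cell types in the members' values was not tested.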

How the data were processed

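Liver RNA of 3 WT and 3 LKO mice was sequenced by the authors. By the methods rRNA was removed and a kit for total RNA used, while by the labels the kit selected mRNA. The submitters' processing notes name bcl2fastq 2.20.0, FastQC 0.11.7, HISAT2 2.1.0, Bowtie2 2.3.4.1 and StringTie 2.1.3b, and mm10. The deposited read counts are whole numbers per gene and were not normalized. The deposited FPKM are scaled by gene length and by the fragments of the library. The deposited TPM sum to a fixed total in each mouse. Strand use in counting is not given in the sources used here.

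Genotypes came from the labels. The filter of the study's methods, at most 1 zero count in 6 mice, kept 18636 of 45777 genes. After TMM scaling, genotypes were compared by the two-sided quasi-likelihood test of edgeR 4.0.16 (R 4.3.3), with Benjamini-Hochberg adjustment. Total counts in place of TMM, DESeq2 1.42.0, exactTest, other filters and scalings, near copies summed, limma 3.58.1 on log2(TPM + 1) or log2(TPM + 0.1), a correction for gene length (relative length from counts and FPKM), a replicate block and leaving out each mouse were tried. Protein-coding genes alone with total counts were chosen after seeing the data. On counts simulated from these means for 18445 genes, with 200 changed, the quasi-likelihood test recovered 195 and called 8 unchanged genes. The changed genes had a median absolute log2 fold change of 1.99, with as many rises as falls, and all genes had the same dispersion. Far fewer genes changed in it than the 7476 called in the data. The simulation thus does not test calls that depend on the scaling of libraries.

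The members and all lists were chosen with earlier results of these data known. Genes named from each list of acute-phase, signaling or related genes were up to 4 largest rises and 4 largest falls among called genes whose mean reached 1 CPM. Some but not all of the others called at that level were named. *Stat3*, *Socs3*, *Il6ra*, *Cebpb*, *Cebpd*, *Nr3c1*, *Alb* and *Pak4* were named whatever their values. *Tnf*, *Il1b* and *Tsc22d3* were added after their values were seen, and markers of cell types were named whether called or not. Promoters and coordinates are from RefSeq (GRCm38.p6) and transcripts from GENCODE, matched by symbol and Entrez number. The methods call the samples biological replicates, each with its own library. The p-values set the difference between genotypes against the spread between these mice, which edgeR estimates with information shared across genes.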

Additional observations from a re-analysis of the deposited data

How the results depend on the processing

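Of 220 comparisons of a member with an alternative, 182 kept direction and side of the threshold, 16 lost the call, 4 of them with a turned sign, 5 gained one and 21 turned sign in all. *Saa3* and *Apcs* kept theirs in 22 of 22. Genes called numbered 7476, and 12918 and 13851 with limma on log2(TPM + 1) and log2(TPM + 0.1), 4374 at adjusted p under 0.01 and 4639 at 2-fold or more. Members called higher fell from 5 to 3 with total counts and to 1 with either TPM setting, and members called lower went from 1 to 2 with these and with protein-coding genes alone and total counts. Over all 18636 genes tested, those called higher went from 3661 to 1169 with total counts and to 399 and 430 with log2(TPM + 1) and log2(TPM + 0.1). Those called lower went from 3815 to 9573, 12519 and 13421. Of 13858 protein-coding genes with total counts, 1013 were called higher and 7393 lower. *Pak4* was called with total counts (-1.54), log2(TPM + 1) (-1.19), log2(TPM + 0.1) (-2.14) and protein-coding genes with total counts (-1.37). Leaving out each mouse gave -1.08 to -0.49 for *Pak4*, which was called without LKO mouse 3. It gave 5663 to 7309 genes called and 2796 to 3517 genes called higher, with 4 to 6 members called higher. It gave -0.31 to 1.79 for *Saa1*, which was called without LKO mouse 1, -0.66 to 1.83 for *Saa2*, -0.43 to 0.14 for *Hp*, -0.30 to 1.01 for *Lcn2* and 0.73 to 1.66 for *Hpx*.

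Signs turned as follows. With log2(TPM + 1) and log2(TPM + 0.1), *Saa1* was at -0.92 and -0.93, *Saa2* at -1.10 and -1.12, *Orm2* at -0.14 and -0.15, *Lcn2* at -1.10 and -1.16, and *Hpx* at -0.32 and -0.32. Without LKO mouse 2, *Saa1* was at -0.31, *Saa2* at -0.66 and *Lcn2* at -0.30. With total counts *Lcn2* was at -0.43, and at -0.26 over protein-coding genes. *Hp*, near 0, was at 0.0036 with upper-quartile scaling and at 0.0014 and 0.14 without LKO mouse 1 and 3. The cause was not tested, beyond the fewer samples of the last settings.

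Deviations from the genotype means of same-numbered mice correlated at 0.051, -0.025 and -0.076, and those of differently numbered mice at -0.074 to 0.084. With 3 mice per genotype these values cannot decide whether the replicate numbers pair the mice. With the replicate block 6431 genes were called, 3129 of them higher, and 4 members were called higher. *Hpx* lost its call (1.22, adjusted p = 0.056, edgeR), the only member to do so. With the replicate block and the correction for gene length *Saa1* was at -0.12, *Saa2* at -0.31, *Lcn2* at -0.077 and *Hpx* at 1.16 (adjusted p = 0.051, edgeR). The smallest count of a member in any mouse was 245.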
